A study of Drosophila melanogaster with 2 samples.

Results

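Of the 3672 thresholded CG12299 peaks, 577 (15.7%, 95% exact binomial interval 14.6 to 16.9) had their summit inside a gene, in no exon of any transcript, and more than 2000 bp from the nearest annotated transcription start site (TSS). These far intronic peaks were chosen by position alone: the summit, the base where the authors placed the top of each peak, was set against the Ensembl annotation of the dm6 assembly with transposable elements left out. The other thresholded summits lay within 500 bp of a TSS (2175), in an intron 501 to 2000 bp away (509), between genes (155 at 501 to 2000 bp and 171 farther out) or in an exon (85). The same rule held for 7279 of the 25545 other pooled peaks (28.5%, interval 27.9 to 29.1) and for 41400651 of the 133880608 bases of 6 chromosome arms (30.9%). Far introns thus held a smaller share of thresholded peaks than of weaker peaks or of bases.

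The study profiled CG12299, a protein named by its annotation number only, with ChIP-seq on Drosophila melanogaster, using whole embryos of 0 to 24 h. The flies were a transgenic line that stably makes CG12299 with green fluorescent protein at its C terminus, and the chromatin was precipitated with an antibody against that tag. All embryos carry the transgene, and the 2 biological replicates form the only group. Each peak comes from a mixture of all tissues and stages of the embryo, so neither the cells nor the age at which a site was occupied can be told. The labels do not name the promoter of the transgene.

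A peak in an intron is DNA that the tagged protein contacted, directly or through other proteins, away from the start of the gene that surrounds it. Introns are removed from the transcript, yet in flies the long ones, above all those near the 5′ end of developmental genes, are known to hold enhancers, which are short stretches where transcription factors gather to set when and where a gene is read. Alternative gene starts also lie inside such introns, which is why the distance here is counted to the nearest start of any transcript and not only to that of the host gene. An enhancer can also act on another gene than its host, and the peak lists do not say which gene a site serves.

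The sequence under the far intronic peaks is shown first for the highest peaks, because their base composition recurs in the results. Each line gives the host gene, the position in dm6 and the plus strand from 50 bases before to 50 after the summit, with capitals for any of 14 short words that were searched on both strands. The first set holds 8 of the highest far intronic peaks, 1 per host gene.
Tlk, chrX:3742149-3742249: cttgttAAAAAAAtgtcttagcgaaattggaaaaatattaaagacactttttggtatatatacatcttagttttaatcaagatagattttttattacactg
tara, chr3R:16236875-16236975: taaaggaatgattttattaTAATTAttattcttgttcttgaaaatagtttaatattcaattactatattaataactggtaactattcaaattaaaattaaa
trx, chr3R:14283815-14283915: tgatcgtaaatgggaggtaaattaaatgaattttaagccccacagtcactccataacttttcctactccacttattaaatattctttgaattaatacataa
Gug, chr3L:8458274-8458374: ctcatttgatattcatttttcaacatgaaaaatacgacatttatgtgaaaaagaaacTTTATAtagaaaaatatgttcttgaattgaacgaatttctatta
Raf, chrX:2297691-2297791: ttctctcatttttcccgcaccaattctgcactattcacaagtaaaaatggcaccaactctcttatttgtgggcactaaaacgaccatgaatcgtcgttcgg
Kdm2, chr3R:9057505-9057605: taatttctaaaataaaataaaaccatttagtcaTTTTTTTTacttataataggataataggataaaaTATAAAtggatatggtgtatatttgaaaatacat
simj, chr3L:10678700-10678800: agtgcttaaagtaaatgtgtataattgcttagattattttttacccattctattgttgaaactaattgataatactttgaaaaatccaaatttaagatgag
Hr4, chrX:1947695-1947795: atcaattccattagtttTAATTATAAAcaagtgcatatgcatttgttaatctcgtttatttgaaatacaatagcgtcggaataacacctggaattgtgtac
All 8 are read from the reference genome. Runs of A and T fill most of them, with the GC content within 50 bp of the summit between 14.9% at tara and 42.6% at Raf.

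The next set holds 4 far intronic peaks with the word TCGATA, bound by the boundary protein BEAF-32, shown because this word and the longer ATCGATA it overlaps, the core of the DNA replication-related element (DRE), were less frequent here than at gene starts.
CG33158 and aos, chr3L:16480519-16480619: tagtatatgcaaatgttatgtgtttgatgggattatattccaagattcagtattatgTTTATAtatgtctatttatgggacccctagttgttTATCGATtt
Kdm2, chr3R:9055874-9055974: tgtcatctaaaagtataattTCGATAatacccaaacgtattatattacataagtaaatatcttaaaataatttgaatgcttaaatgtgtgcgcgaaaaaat
upSET, chr3L:14005052-14005152: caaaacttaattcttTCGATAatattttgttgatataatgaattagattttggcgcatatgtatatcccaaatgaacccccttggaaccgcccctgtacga
eff, chr3R:14738567-14738667: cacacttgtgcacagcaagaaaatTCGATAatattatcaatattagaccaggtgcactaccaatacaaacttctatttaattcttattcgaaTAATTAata
The aos site is the only one of these 4 with the DRE core, which stands at its 3′ end as the reverse complement.

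The last set holds the 4 highest far intronic peaks with the word TGTTTAC or its reverse complement GTAAACA, the core recognised by fork head transcription factors, shown because it was more frequent here than at the other thresholded summits.
Oatp30B, chr2L:9525824-9525924: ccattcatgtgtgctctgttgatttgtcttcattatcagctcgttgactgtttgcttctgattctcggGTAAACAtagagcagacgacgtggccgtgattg
S, chr2L:1072318-1072418: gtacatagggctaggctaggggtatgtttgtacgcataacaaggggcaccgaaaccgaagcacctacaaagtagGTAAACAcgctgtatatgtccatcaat
Atg17, chr3R:5672732-5672832: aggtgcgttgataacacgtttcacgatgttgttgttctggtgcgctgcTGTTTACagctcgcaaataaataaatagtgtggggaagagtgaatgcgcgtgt
Raf, chrX:2300644-2300744: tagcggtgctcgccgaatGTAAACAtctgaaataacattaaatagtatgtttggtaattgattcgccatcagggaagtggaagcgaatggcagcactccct
Their GC content, from 43.6% at Raf to 46.5% at S, was above that of each of the 8 peaks shown first. This set was chosen after the frequencies of the words had been seen.

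Several of the highest far intronic peaks lay in genes that act on chromatin or carry developmental signals. The strength given for a peak is its signalValue, the authors' own score, which ranks peaks within 1 list and whose scale is not given. Tlk, which encodes the Tousled-like kinase of chromatin assembly, held the highest, with 1074 in the thresholded list, 522 in replicate 1 and 562 in replicate 2 (chrX:3742050-3742368). It ranked 31 among all 3672 thresholded peaks, and lay 2302 bp from a TSS in an intron of 41450 bp. CG12769 followed with 1037, with 506 and 535 in replicates 1 and 2, in intron 1 of 7908 bp. sbb, a transcriptional co-repressor gene also called brakeless, had a peak of 870.4 at 20108 bp from its TSS, with 497 in replicate 1 and 374 in replicate 2. It was the peak among the first 6 that was clearly lower in one replicate.

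tara, a gene linked to the trithorax group and to the cell cycle, had a peak of 761 (371 in replicate 1 and 404 in replicate 2) in an intron 1 of 30338 bp. trx, the histone H3 lysine methyltransferase that keeps Hox genes active, had one of 728 (367 and 355) in an intron 1 of 6667 bp. Gug, the fly Atrophin and a co-repressor, had one of 725 (342 and 388), 7676 bp from a TSS. Both replicates thus ranked these 3 sites high. The Hr3 locus, where the genes CG12912 and CG46321 share the intron with this ecdysone-induced nuclear receptor gene, had a peak of 703 (357 and 355) at 7879 bp from a TSS. Raf, the kinase that passes receptor tyrosine kinase signals to the MAP kinase cascade, had one of 654 (307 and 341) in intron 2. Kdm2, a histone demethylase gene, had one of 653 (329 and 335) and a second of 428, 2633 bp from its TSS. simj, which encodes the p66 subunit of the NuRD remodelling complex, held 3 peaks of 543, 539.7 and 339 in an intron of 19639 bp. Among the 20 highest were also Hr4, another ecdysone-regulated nuclear receptor gene (472), JIL-1, a histone H3 kinase gene (448), the intron shared by CG33158 and aos, whose product inhibits the EGF receptor (444), and mam, the co-activator of Notch (436). The other hosts among the 20 highest were CG9328 (463), CG32486 (428), atos (427) and the overlapping CG1677 and lncRNA:CR44357 (418).

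As a class the far intronic peaks were not the strongest. The lowest signalValue among them was 107.0, the highest 1074 and the median 148 (95% order-statistic interval 142 to 154), against a median of 156 (interval 153 to 159) for the other thresholded peaks and 160.0 (interval 153 to 170) for the intronic ones at 501 to 2000 bp. Of the 100 highest thresholded peaks 8 were far intronic, and 262 of the 577 (45.4%, exact binomial interval 41.3 to 49.6) fell in the stronger 1836. The median rank was 2012 (interval 1854 to 2149) against 1800 (interval 1737 to 1871) for the other thresholded peaks. Both pairs of intervals overlapped slightly. No test was made between classes of peaks here or below, because the peaks of 1 list share 2 libraries and are not replicates; intervals cover counting error only.

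Both replicates carried nearly all of these sites. All 577 overlapped a peak of the replicate 1 list and 576 one of the replicate 2 list. The exception was a peak of 353 in Lrch, with 214 in replicate 1. Of the 3095 other thresholded peaks, 3093 overlapped one of replicate 1 and 3095 one of replicate 2, so this is not particular to far introns. The thresholded list was itself drawn from both replicates, so this follows in part from the selection. The signalValues of the far intronic peaks had a median of 78.6 in replicate 1 (range 19.8 to 522) and of 70.9 in replicate 2 (range 19.6 to 562). Within the 3672 highest peaks of replicate 1 lay 456 (79.0%, interval 75.5 to 82.3), against 84.7% of the other thresholded peaks (interval 83.4 to 85.9). For replicate 2 it was 491 (85.1%, interval 81.9 to 87.9) against 82.8% (interval 81.4 to 84.1). Their median rank was 2228 against 1799 in replicate 1 and 1963.5 against 1820 in replicate 2. Far intronic sites thus stood lower than the other thresholded peaks in replicate 1 by both measures. In replicate 2 the 2 measures pointed opposite ways, and the intervals overlapped for both. Those of the rank were 1812 to 2105 against 1742 to 1893.

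**Figure D1:**
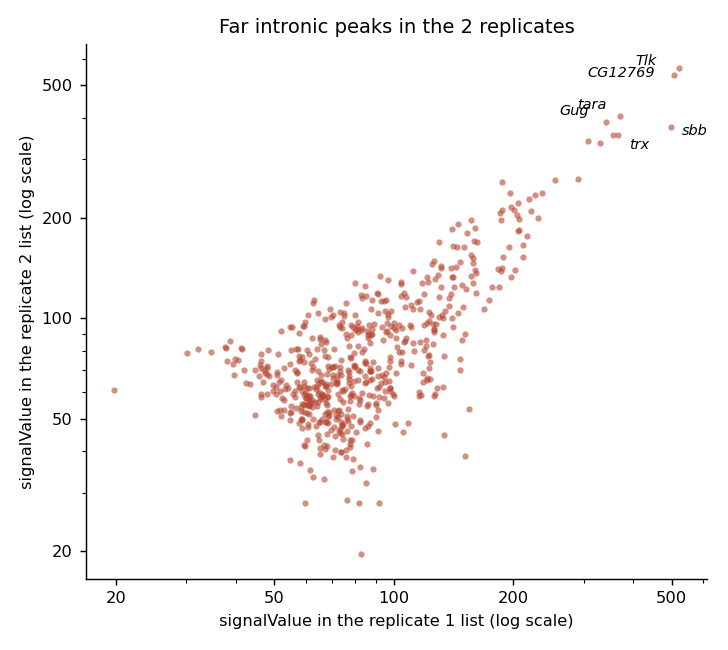
SignalValue of 576 far intronic peaks in the replicate 1 list (x axis) and in the replicate 2 list (y axis), both on a log scale, 1 point per peak. The points spread widely below 100, and the 6 highest peaks of the thresholded list, named by host gene, stand at the top right in both replicates, with sbb lower in replicate 2 than in replicate 1.

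The limit of 2000 bp cuts through a continuous range of distances. The far intronic peaks nearest to a TSS lay at 2003 bp in the Hr3 locus with a signalValue of 129, at 2014 bp in hiw with 210.3 and at 2022 bp in pot with 368. Those just short of the rule included those at 1992 bp in crol with 129 and at 1997 bp in NFAT with 144.

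Far intronic peaks were denser close to gene starts than deep inside genes. Per Mb of sequence that satisfies the rule there were 13.9 far intronic peaks (95% exact Poisson interval 12.8 to 15.1). Over the range of distances to a TSS the density was 25.1 per Mb (interval 21.05 to 29.8) at 2001 to 3000 bp, 20.9 up to 5000 bp, 15.6 up to 10000 bp, 8.87 up to 20000 bp and 3.58 (interval 2.44 to 5.09) beyond. The other pooled peaks under the same rule also thinned out, at 253 per Mb at 2001 to 3000 bp and 63.0 beyond 20000 bp. The median distance was 4938 bp for far intronic peaks, 5795 bp for those weaker peaks and 8001 bp for all bases. The farthest was a peak of 243 in mamo, a zinc-finger gene of the germ line, 42287 bp from any TSS. Next came one of 154 in Snoo, a Ski family gene of the TGF-beta pathway, at 41801 bp, and one of 117 in CG43759 at 41299 bp. How well reads can be placed in long introns is not in the files, and its part in the density was not tested.

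Intron 1 held most of the far intronic peaks. In 367 of 577 (63.6%, interval 59.5 to 67.5) the summit lay in intron 1 of at least 1 transcript, against 52.7% (interval 51.5 to 53.9) of the other pooled peaks under the same rule and 37.6% of the bases. In 202 (35.0%, interval 31.1 to 39.1) every annotated intron at the summit was an intron 1, against 30.0% (interval 28.9 to 31.1). By the lowest intron number at the summit, 143 lay in intron 2, 32 in intron 3, 14 in intron 4 and 21 in intron 5 or later, the last being 3.64% against 6.84% of the other pooled peaks. The density in intron 1 was 23.6 per Mb (interval 21.2 to 26.1), against 8.13 per Mb (interval 7.07 to 9.30) in later introns. For the other pooled peaks these densities were 247 and 133 per Mb. Intron 1 is the intron nearest to a TSS of its transcript, so intron number and distance are linked, and their parts were not tested apart.

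The rule itself favours long introns, but the longest introns were the poorest in far intronic peaks. The shortest intron at the summit had a median length of 12563 bp (interval 11568 to 13814) and ranged from 529 to 126467 bp, against medians of 13544 bp for the other pooled peaks and 16191 bp for all bases under the same rule. The density was 11.6 per Mb (interval 9.39 to 14.2) in introns under 5000 bp, 20.9 (interval 17.5 to 24.9) from 5000 to 10000 bp, 18.0 (interval 15.4 to 20.96) from 10000 to 20000 bp, 13.8 (interval 11.6 to 16.2) from 20000 to 50000 bp and 5.90 (interval 4.28 to 7.91) above. Within every length class intron 1 had the higher density, from 31.4 against 11.8 per Mb at 5000 to 10000 bp down to 11.6 against 3.96 per Mb at 50000 bp and over. The intervals of intron 1 and later introns did not overlap in any of the 5 classes. By this measure the longest host intron, of 126467 bp, belonged to Ptp61F, a tyrosine phosphatase gene, and held a peak of 256. By the longest intron at each summit the highest value was 133764 bp. An intron 1 of 110416 bp in jing, a zinc-finger transcription factor gene, held 5 peaks of 108 to 158. Along the intron the summits stood at a median of 46.0% of its length from the 5′ end, against 48.4% for the other pooled peaks, and the median distance to the nearer intron end was 2946 bp against 2990 bp.

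**Figure D2:**
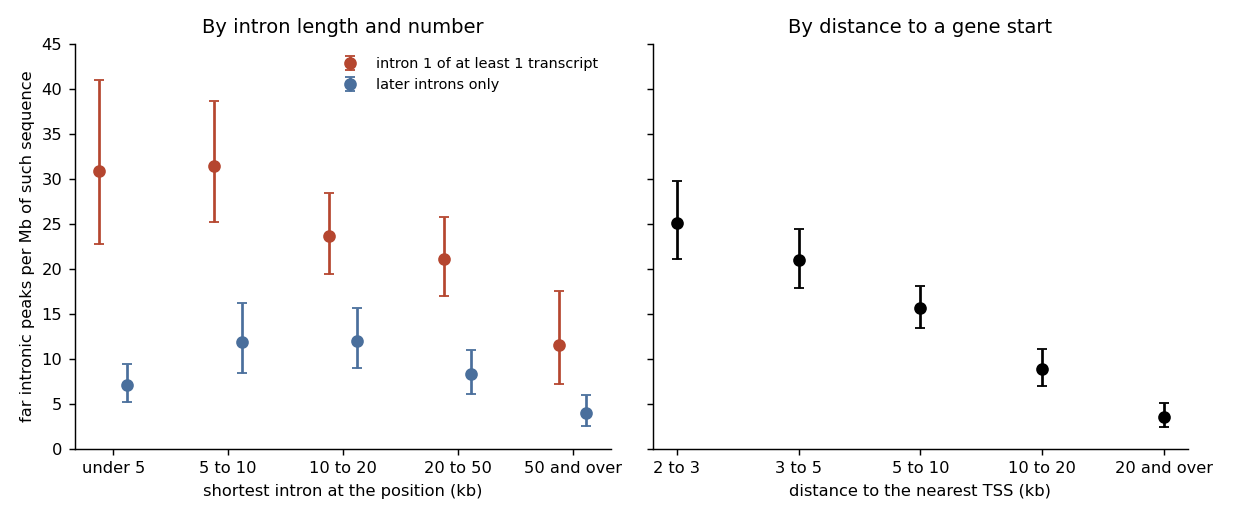
Far intronic peaks per Mb of sequence that satisfies the rule (y axis), by the length of the shortest intron at the position (left, x axis in kb, intron 1 of at least 1 transcript beside later introns) and by the distance to the nearest TSS (right, x axis in kb); bars are 95% exact Poisson intervals. Intron 1 lies above later introns in all 5 length classes, and the density falls with distance to 3.58 per Mb beyond 20000 bp.

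The 577 peaks lay in 392 host genes, 383 of them protein-coding, among 4333 genes with any sequence that satisfies the rule. In 32 cases (5.55%) genes overlapped and the summit had more than 1 host, and 569 peaks had a protein-coding host. A single far intronic peak was found in 260 hosts, 2 in 83, and 3 or more in 49 hosts that together held 173. The nearest TSS belonged to a host in 389 cases (67.4%, interval 63.4 to 71.2), against 61.1% for the other pooled peaks. Protein-coding hosts were long, with a median gene length of 29548 bp, against 7943 bp for protein-coding genes that had such sequence but no far intronic peak. Long genes offer more sequence under the rule, with a median of 18286 bp in these hosts and 1174 bp in the other genes. The difference in length thus follows in part from the rule. The share of protein-coding genes that were hosts grew with the length of that sequence. It was 2.46% under 5000 bp, 13.9% up to 10000 bp, 19.8% up to 20000 bp, 28.2% up to 50000 bp and 36.0% beyond. More sequence leaves more room for a peak, so a rise of this kind follows in part from the rule too.

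Several hosts held clusters of peaks of unequal height. sbb held 9, from 115 to 870.4, all in an intron of 49364 bp, and its 4 strongest stood between 18825 and 23921 bp from the 5′ end of the gene. Raf held 8, from 108 to 654, all in an intron 2 of 43637 bp, 7 of them within 11057 bp of its 5′ end. tara held 8, from 109.8 to 761, all in an intron of 30338 bp, and 4 of them also lay in a shorter annotated intron of 13448 bp. Hr4 held 6, from 112 to 472, spread over 4 introns. ush, which encodes a zinc-finger co-factor of GATA factors, held 6 of 109.5 to 383. Higher thresholded peaks of 1866 and 622 stood in ush at 4.888 and 3.856 kb from its 5′ end, but did not satisfy the rule. The long non-coding RNA gene lncRNA:CR44357 held 7 far intronic peaks. Snoo, jing and shn, the last a zinc-finger factor of Dpp signalling, held 5 each. Between neighbours in the same host the median distance was 4803.5 bp over 204 pairs, with a range from 199 to 235767 bp. Of these pairs 30 lay within 1000 bp and 8 had peaks that overlapped.

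The other hosts with 4 peaks were CG1677, CG46385, RapGAP1, a regulator of the Rap GTPase, atos, bun, a leucine-zipper factor gene, crp, a helix-loop-helix factor gene, and px. Their highest peaks were between 148 in bun and 427 in atos. Among hosts with 3, simj had no low one, at 339 to 543, nor did apt, a transcription factor gene of the head and trachea, at 195.2 to 214, and CHES-1-like, itself a fork head gene, at 195.2 to 237. In trx and Tlk 1 peak stood well above the others, at 728 against 189.8 and 119 in trx and 1074 against 199.5 and 166 in Tlk. REPTOR, a transcription factor gene of TORC1 signalling, held 379, 249 and 115. cic, the repressor that receptor tyrosine kinase signals relieve, held 111 to 204, and Pdp1, a bZIP factor gene of muscle and the clock, 114 to 221. By chromosome arm the density was highest on X, at 16.1 per Mb (interval 13.5 to 19.2), and 2L, at 15.97 per Mb (interval 13.05 to 19.4), and lay between 12.4 and 13.7 per Mb on 2R, 3L and 3R, with intervals that overlapped. The small arm 4 held 1 far intronic peak in 0.445 Mb.

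**Figure D3:**
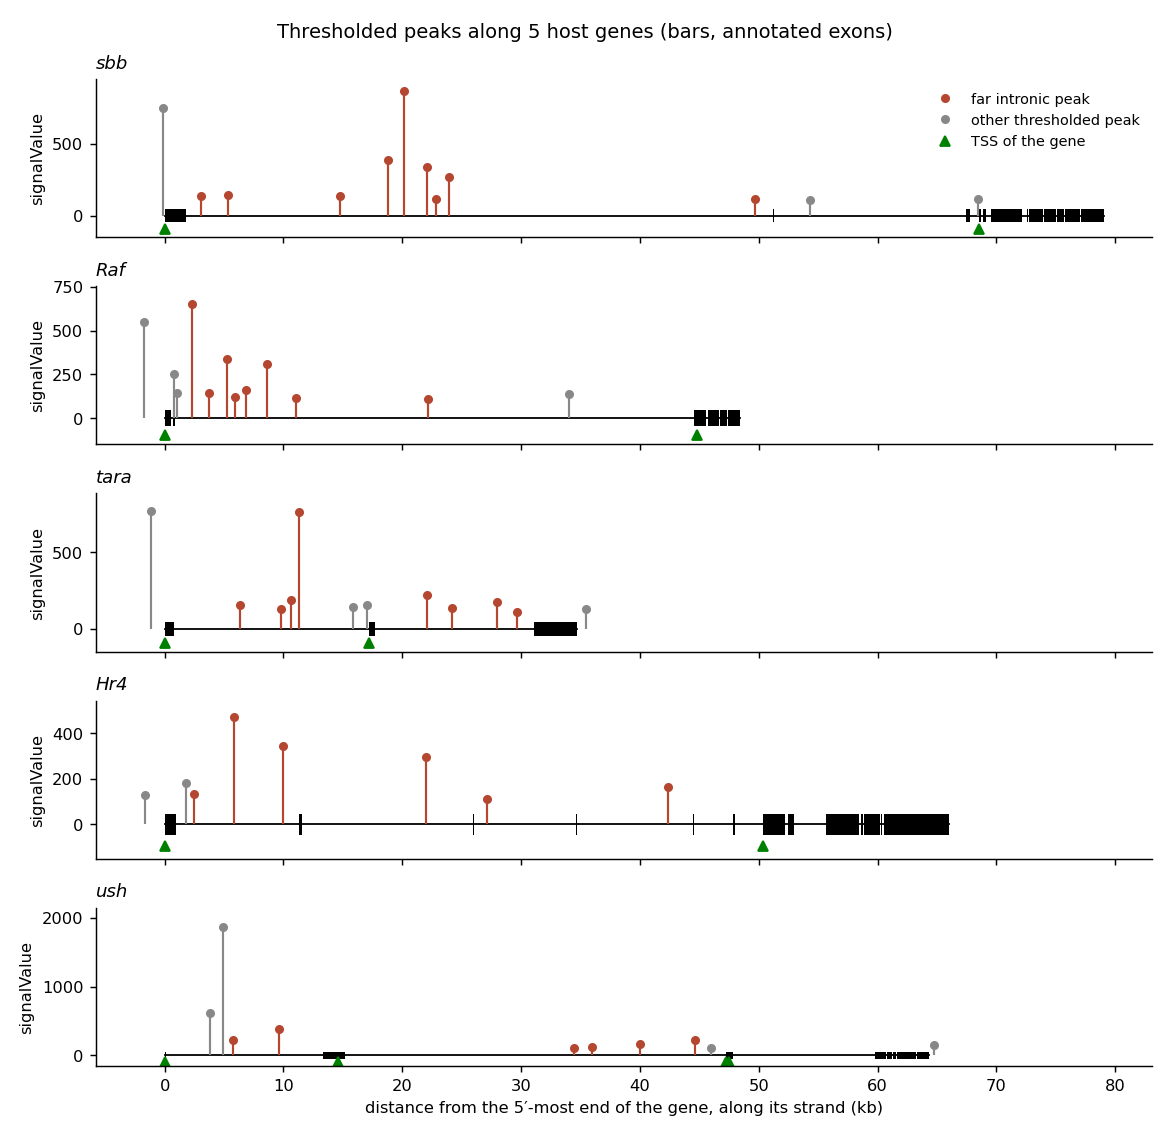
Thresholded peaks along the 5 protein-coding hosts with the most far intronic peaks, with the distance from the 5′-most end of the gene along its strand in kb (x axis) and signalValue (y axis, its own scale for each gene); bars are annotated exons and triangles annotated TSSs. Far intronic peaks gather between 18825 and 23921 bp in sbb and within 11057 bp of the 5′ end in Raf, and each of the 5 genes also has other thresholded peaks.

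A larger share of hosts than of other genes with far intronic sequence had a thresholded peak at their own start. Of 383 protein-coding hosts, 176 (46.0%, interval 40.9 to 51.1) had a thresholded summit within 500 bp of one of their own TSSs, against 928 of 3833 protein-coding genes with such sequence but no far intronic peak (24.2%, interval 22.9 to 25.6). A gene with more annotated TSSs has more chances to be counted, and the number of TSSs was not taken into account. The gap between hosts and other genes was there at each length of that sequence. The shares were 44.9% against 25.9% under 5000 bp, 50% against 22.2% up to 10000 bp, 53.8% against 22.5% up to 20000 bp, 41.4% against 17.6% up to 50000 bp and 41.4% against 9.71% beyond. In the class under 5000 bp, where 69 genes were hosts, the intervals were 32.9 to 57.4 and 24.3 to 27.6. sbb is such a host, with a peak of 751 just upstream of its start, whereas Raf had no thresholded summit within 500 bp of a TSS of its own and its nearest, of 250.2, lay downstream of its start.

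By role, genes of signalling pathways and of the ecdysone response stood above the average of all genes, and ion channel and synapse genes below it. Over all genes, 392 of 4333 with eligible sequence were hosts (9.05%), at 13.9 far intronic peaks per Mb. For lists of genes the same was counted, per Mb of each list's own sequence under the rule, because long genes offer more of it. Of the signalling genes 22 of 52 were hosts (42.3%, interval 28.7 to 56.8), with 35 peaks at 40.7 per Mb (interval 28.3 to 56.6). The other pooled peaks stood at 399.8 per Mb in these genes, against 176 per Mb over all genes, so the weaker peaks were denser there too.

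Among ligands of the signalling pathways, dpp, the fly BMP, held a peak of 182 in intron 1 (94.0 in replicate 1 and 85.9 in replicate 2). Pvf3, a PDGF and VEGF relative, held 1 of 145 and bnl, an FGF, 1 of 141. Wnt4, a Wnt protein gene, held 1 of 123 and jeb, the ligand of the Alk receptor, 1 of 115. Of the secreted antagonists, aos carried the peak of 444 shown above with the DRE core, with 218 in replicate 1 and 228 in replicate 2, and sog, a BMP antagonist, 1 of 147. Of receptors, fz, the Frizzled receptor of Wingless and planar polarity, held 3 peaks of 339, 158 and 155. N, the Notch receptor, held 1 of 274 in intron 5 of 4245 bp, and InR, the insulin receptor, 1 of 273 in intron 1 of 15153 bp. ptc, the Hedgehog receptor, held 1 of 219 and fz2 1 of 117. The glypican co-receptor genes dlp, with 288, 202 and 110.4, and dally, with 179.6, were both hosts. Inside the cell the hosts were nkd (highest 188) and sgg (114) of the Wingless pathway, shn (184) of the Dpp pathway, cact (194), the inhibitor of Dorsal in the Toll pathway, Stat92E (139) and its feedback inhibitor Socs36E (165). The opposed ETS factors of receptor tyrosine kinase signalling, the activator pnt (190.1) and the repressor aop (highest 193), both held far intronic peaks.

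Of the nuclear receptor and ecdysone response genes 9 of 21 were hosts (42.9%, interval 21.8 to 65.98), with 22 peaks at 36.2 per Mb (interval 22.7 to 54.8). The other pooled peaks were denser there too, at 306 per Mb (interval 263 to 353) against 176 over all genes. The receptor EcR itself held 1 of 158 in an intron of 27810 bp, with 96.8 in replicate 1 and 55.7 in replicate 2. Hr3 and Hr4, named above, held 3 and 6. Eip75B, an early ecdysone-induced nuclear receptor gene, held 3 of 201, 170.3 and 142, and Eip74EF, an early ETS factor gene, 1 of 132. ftz-f1, the receptor gene that sets competence for later hormone pulses, held 3 of 130.1, 121 and 107 in an intron 2 of 25172 bp. The same 3 peaks also lay in the overlapping lncRNA:CR45939. Eip63E, a cyclin-dependent kinase gene, held 2 of 273 and 189, the co-activator gene tai 2 of 129 and 114, and the receptor gene Hr96 1 of 118. The highest peak of Hr3 and that of Hr4 led the list, and the EcR peak ranked 1776 among all thresholded peaks.

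Homeodomain genes had 5 hosts of 47 (10.6%), at 10.03 per Mb (interval 4.33 to 19.8). They were hth, a partner of Hox proteins, with 3 peaks of 254, 162 and 133, Abd-B, the Hox gene of the posterior abdomen, with 215 in intron 1, Antp, that of the thorax, with 214 and 146, and cad with 129 and ct with 126. Further factors of patterning and cell fate had 6 hosts of 43 (13.95%), at 13.7 per Mb (interval 7.07 to 23.9), led by ush, by Mef2, the myogenic MADS-box factor, with 282 and 197 in intron 1, and by bowl with 269, with grh at 262, jumu, a fork head gene, at 207 and chinmo at 109 after them. The Antp peaks also lay in the overlapping gene CG46458. The intervals of both lists held the value over all genes.

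Ion channel and synapse genes carried few. Of 64 ion channel and synapse genes with 1.56 Mb of sequence under the rule, 2 were hosts (3.13%, interval 0.381 to 10.8), at 1.28 per Mb (interval 0.155 to 4.63). There was 1 host with replicate 2's list alone and 3 with replicate 1's. The 2 were Ca-beta, a calcium channel subunit gene, with 148, and Shal, a potassium channel gene, with 117. The other pooled peaks were also sparse in this list, at 67.9 per Mb against 176 over all genes. Axon guidance and adhesion genes, the list with the most sequence at 3.70 Mb, had 16 hosts of 103 (15.5%) at 6.21 per Mb (interval 3.94 to 9.32). Their highest peaks were in kirre, the adhesion protein of muscle founder cells, with 251, in fra, the netrin receptor, with 208, and in NetA, a netrin, with 206. RNA-binding protein genes had 7 hosts of 24 at 6.89 per Mb (interval 3.30 to 12.7), led by shep with 276, Rbfox1 with 191 and how with 180.05. By share of genes the guidance and RNA-binding lists stood above all genes, and by density below.

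The remaining lists lay near the average. Cyclic nucleotide and kinase signalling genes had 6 of 30 at 13.6 per Mb (interval 5.86 to 26.7), led by mnb, a DYRK kinase gene, with 414, and dnc, the cAMP phosphodiesterase of learning, with 255, 133 and 109.8. Muscle and cytoskeletal linker genes had 4 of 36 at 11.4 per Mb (interval 3.69 to 26.5). They were Dys, the fly dystrophin, with 393, scrib, a cell polarity gene, with 168 and 123, rhea, the fly talin, with 153, and shot. Cytosolic ribosomal protein genes could hold none, because none of the 85 has an intron position more than 2000 bp from a TSS. CG12299 itself has no such sequence either.

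Because chromatin genes led the ranking, a list of 90 chromatin regulator and co-regulator genes was added after the hosts had been seen, and its values are a description that supports nothing. Of 69 with sequence under the rule, 18 were hosts (26.1%, interval 16.3 to 38.1), with 53 peaks at 89.9 per Mb (interval 67.3 to 118). Besides those named above they include upSET with 344, Mi-2, the remodelling ATPase of NuRD, with a highest peak of 317, Smr, a nuclear receptor co-repressor, with 309, the demethylase gene Kdm4B with 237, HDAC4 with 204.9, Tet with 180.2 and the Polycomb group genes ph-p with 155 and Psc with 139.7. The Mi-2 peaks also lay in the overlapping gene Su(Tpl). The other pooled peaks stood at 478 per Mb in these 69 genes.

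**Figure D4:**
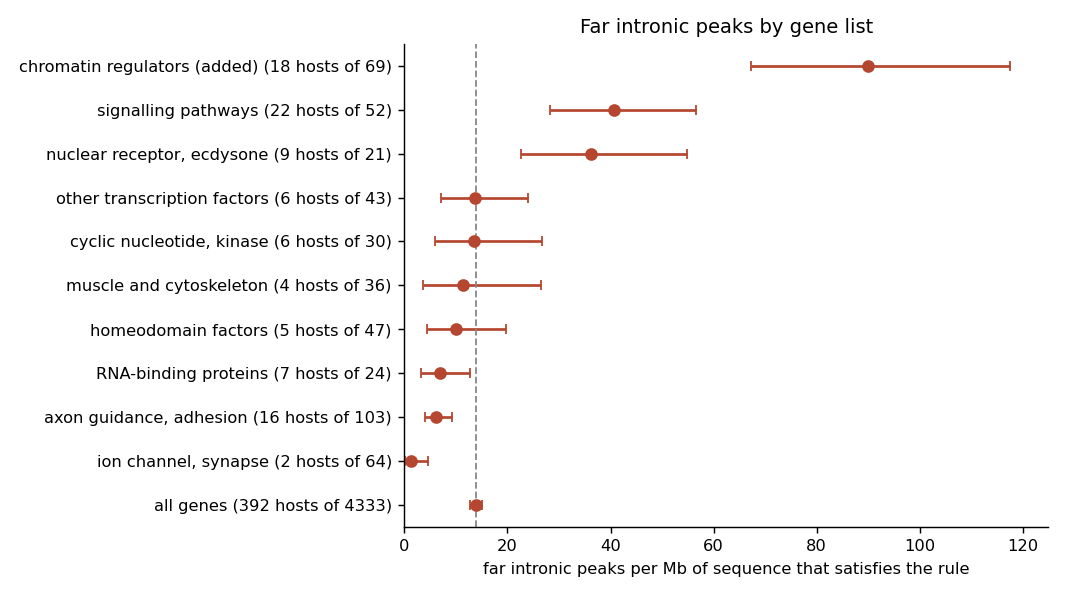
Far intronic peaks per Mb of sequence that satisfies the rule (x axis) for each gene list (y axis, with the number of host genes of the genes that have such sequence); bars are 95% exact Poisson intervals and the dashed line is the value over all genes, 13.9 per Mb. Signalling and nuclear receptor genes lie to its right and ion channel and synapse genes to its left, at 1.28 per Mb. The lists were chosen with earlier results of these data known, and the chromatin list was added after the hosts had been seen.

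On average, far intronic summits sat in a narrow AT-rich dip. The mean GC content within 50 bp was 32.9% (SD 8.53, n = 577 peaks), against 34.3% (SD 10.19, n = 3095) at the other thresholded summits and 40.3% (SD 9.17, n = 7279) at the other pooled summits under the same rule. By the profile in 21-bp windows, far intronic sequence had 31.9% at the summit, 40.1% and 41.2% at 100 bp on either side and 43.8% and 42.5% at 300 bp. Intronic peaks at 501 to 2000 bp from a TSS had 31.3% at the summit, and those within 500 bp of a TSS 35.1%. The other pooled far intronic peaks stayed near 40.5% across the summit. The sequences of Tlk, tara, Gug, Kdm2 and simj printed above had a low GC content, at 14.9 to 23.8%. Raf, at 42.6%, is a high peak without it. The printed stretches end 50 bases from the summit, so they do not show whether a single site has a dip.

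**Figure D5:**
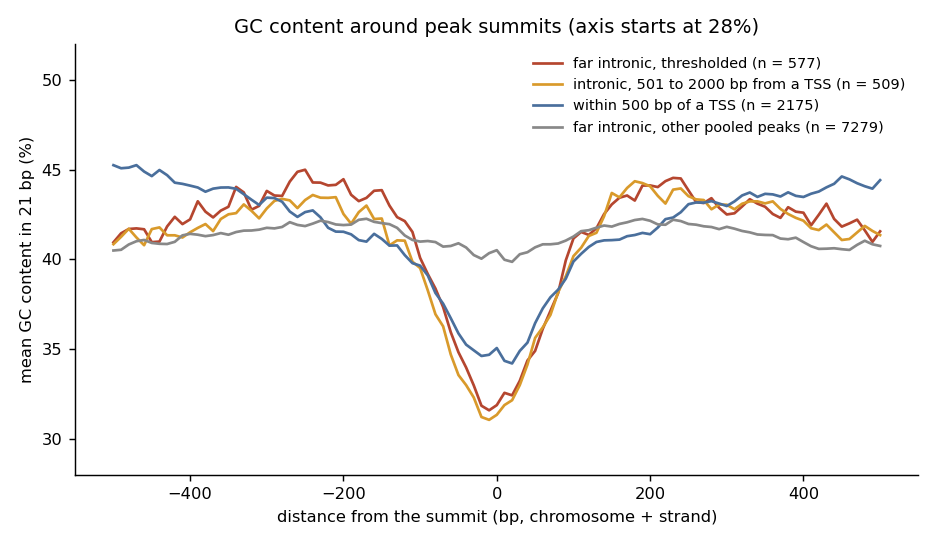
Mean GC content in 21-bp windows (y axis, in percent, starting at 28%) against the distance from the summit along the plus strand in bp (x axis), for 4 groups of peaks. The far intronic thresholded peaks dip to 31.9% at the summit, close to the intronic peaks at 501 to 2000 bp, while the other pooled far intronic peaks stay near 40.5%.

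The fork head word was more frequent at far intronic summits than at the other thresholded ones. Within 50 bp, TGTTTAC or its reverse complement stood at 48 of 577 (8.32%, interval 6.20 to 10.9), against 3.72% of the other thresholded (interval 3.08 to 4.44) and 3.16% of the other pooled summits under the same rule (interval 2.77 to 3.59). Intronic peaks at 501 to 2000 bp had 5.70% (interval 3.85 to 8.08, which overlaps that of the far intronic peaks), exonic ones 5.88% (interval 1.94 to 13.2), those within 500 bp of a TSS 3.31% and intergenic ones beyond 2000 bp 2.34% (4 of 171). Around far intronic summits the share was 2.25% at 250 to 151 bp and 5.55% at 150 to 51 bp on the lower-coordinate side, and 2.77% at 51 to 150 bp and 3.29% at 151 to 250 bp on the other. The other thresholded peaks had 3.20 to 3.72% in all 5 windows. In 4 groups of nearly equal size, taken from the highest signalValue to the lowest, the share was 8.33%, 8.33%, 9.03% and 7.59%, with intervals that overlapped widely.

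The peaks with the fork head word were the less AT-rich ones. Their median GC content was 37.6% and their median signalValue 148, as for all far intronic peaks. Under 25% GC, 0 of 107 far intronic summits had the word (interval up to 3.39%). The other thresholded summits of that GC content had it at 1.79% and the other pooled ones at 2.34%. From 25 to 30% GC the 3 shares were 4.62%, 2.01% and 3.43%, and from 30 to 35% they were 8.09%, 5.44% and 3.56%. The intervals overlapped in these 2 classes. From 35 to 40% the shares were 13.5% (interval 7.17 to 22.4), 4.85% (interval 3.06 to 7.24) and 3.95%. Of the 115 far intronic summits at 40% or more, 19 had the word (16.5%, interval 10.3 to 24.6). This compares with 4.56% of the other thresholded (interval 3.27 to 6.15) and 2.79% of the other pooled summits of that GC content (interval 2.29 to 3.37). The 48 peaks lay in 48 distinct hosts, some peaks having several and some hosts several peaks. Among them were the 4 printed above, in Oatp30B, a transporter gene, S, whose product Star is needed to release the EGF ligand Spitz, Atg17, an autophagy gene, and Raf, as well as peaks in Mef2, aop, Stat92E, Antp, cad, ct, sbb and Psc. The breakdown by GC content was made after the frequencies had been seen, and which of the many fork head proteins of the fly could meet these sites cannot be read from the word.

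The DRE core and the BEAF-32 word were less frequent at far intronic summits than at the other thresholded ones. The DRE core ATCGATA stood at 5 (0.867%, interval 0.282 to 2.01), against 4.65% of the other thresholded summits (interval 3.94 to 5.45), 6.07% of those within 500 bp of a TSS and 1.21% of the other pooled summits under the same rule. The BEAF-32 word TCGATA, which the DRE core contains, stood at 23 (3.99%, interval 2.54 to 5.92) against 8.76% and 3.43%. The 4 printed above, in the CG33158 and aos intron, Kdm2, upSET and eff, a ubiquitin-conjugating enzyme gene, were among the 5 highest with either word. The other classes of thresholded summits away from gene starts also had lower frequencies than those at gene starts. The DRE core was at 1.18% of intronic summits at 501 to 2000 bp, 3.23% of intergenic ones at 501 to 2000 bp, 0.585% of intergenic ones beyond 2000 bp and 0 of 85 exonic ones. The BEAF-32 word was at 3.34%, 4.52%, 3.51% and 3.53% of the same classes, in that order.

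Words of A and T were frequent at thresholded summits of either kind. TATAAA stood at 24.4% of far intronic summits, 23.2% of the other thresholded and 13.5% of the other pooled ones under the same rule, and TTTAAAA at 11.4%, 14.3% and 5.89%. The homeodomain core TAATTA stood at 10.4%, 10.8% and 7.03%. The CA repeat CACACAC was found at 2.25%, 2.97% and 5.58%, and the E-box CAGCTG at 2.43%, 4.10% and 3.81%. The GAGA word GAGAGAG (1.21%, 1.45% and 1.69%), the GATA word GATAAG (6.07%, 5.69% and 5.30%), the Su(H) word GTGGGAA of Notch targets (0.867%, 1.07% and 1.31%), the E-box CACGTG (0.693%, 0.905% and 1.21%, with 0.163% of far intronic summits by replicate 2's list alone) and runs of A (13.9%, 12.1% and 11.6%) differed little between the 3 groups. CAGGTAG, bound by the early embryonic activator Zelda, was at 0.347%, 0.388% and 0.385%. A word is a match of letters in this window and not a bound site. The groups differed in base composition as given above, and its part in the word frequencies was not tested.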

How the data were processed

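ChIP-seq peak lists of embryos aged 0 to 24 h, from 2 biological replicates of 1 group, were analysed; chromatin had been sheared by sonication to 200 to 800 bp, per the labels. The authors deposited a list per replicate, a pooled list and a list past their threshold on reproducibility between replicates, each against 1 control alignment that was not analysed here, per the deposited manifests. No aligner or peak caller is named in the labels or manifests. The signalValue is the authors' deposited score per peak; its scale is not given. The deposited −log10 q-value is tied at its top and served as an alternative ranking. The unthresholded lists stop at 30000 peaks; 1 repeated position in the pooled and in the replicate 2 list was counted once. The lists hold no read counts, so depth is unknown.

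Summits were set against dm6 and Ensembl release 115 (18164 genes, 23581 TSS positions on 6 arms, transposable elements left out). The comparison set was the 25545 pooled peaks that overlap no thresholded peak (minimum 1 bp); all score lower. Densities divide peaks by bases that satisfy the rule. Shares carry 95% exact binomial intervals, densities exact Poisson ones, medians order-statistic ones. Median peak width was 384 bp, and a summit shifted by the caller moves every window. The 14 words were matched on either strand, 50 bp to each side of the summit. Python 3.11.15, numpy 2.4.6, pandas 2.3.3, scipy 1.17.1 and matplotlib 3.10.9 were used, and the counting was checked on simulated data.

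Named hosts are those of the 20 highest far intronic peaks, those with 3 or more, the longest introns, the farthest peaks and the 3 highest per gene list; further hosts of the signalling, nuclear receptor, transcription factor and chromatin lists and of fork head words were named after their values were seen. The peaks and lists were chosen with earlier results of these data known. Alternatives changed the distance limit, the TSSs, the exon rule, the replicate, the window and the peak strength. One gene list is not reported here.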

Additional observations from a re-analysis of the deposited data

How the results depend on the processing

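Over 243 alternative values, 190 were classed as unchanged and 53 as moved. For single words and lists 126 of 153 values were classed as unchanged. Counts carry no interval, so for them this does not mean a change within counting error. At a limit of 1000 bp, 835 peaks in 559 hosts were classed as unchanged against 577 in 392. With the limit at 1000 bp, far intronic peaks made up 22.7% of thresholded peaks, the median host intron was 10387 bp and 69.8% lay in intron 1. At 5000 bp there were 280 peaks (7.63%) in 206 hosts, 47 of them on a gene list against 82 at 2000 bp, with a median signalValue of 142, a median rank of 2150.5, a median intron of 17907 bp and 57.9% in intron 1. Counting only TSSs of protein-coding genes gave 16.9%. The stronger thresholded peaks gave 262 (14.3%) in 211 hosts, a median signalValue of 206, a median rank of 1069, 70.6% in intron 1 and a GC content of 32.1%. Taking the longest intron gave 17264 bp, and asking for intron 1 in every transcript 35.0%. GC content was 32.1% within 25 bp and 35.4% within 100 bp, and the fork head word was at 4.33% and 11.8%; the length of the window enters both by construction. With 1 replicate's list alone, GC content ranged from 32.7% (replicate 2) to 33.8% (replicate 1). The cause of the other shifts was not tested. No paired analysis was possible because there is 1 group. Depth is unknown, so the precision of single peak values cannot be given.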
